A study of Gallus gallus with 16 samples.

Results

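Testes of chicken (Gallus gallus) embryos that had received methyltestosterone were compared with testes of embryos that had received sesame oil. The comparison set 1 value column against another, the male methyltestosterone column against the male oil column, over all 14074 genes of the table. Each column joined a left and a right gonad library, so 4 of the 16 libraries and 2 of the 8 columns of the series entered it. The method was SuperSAGE, which reads 1 short tag per transcript, beside its last NlaIII site, so that levels need no correction for length. The male methyltestosterone embryos had been given methyltestosterone at 30 pg per g body weight, and the male oil embryos had been given sesame oil. Male tributyltin embryos (10 pg tin per g body weight) and untreated males are given beside each named gene. The 4 female columns had the same substances, and they share no library with the male ones. All gonads were taken on day 19 of incubation, shortly before hatching, and each library came from the pooled RNA of 10 individuals. The labels give neither the strain nor the vehicle of methyltestosterone and tributyltin, and how the left and right libraries were joined is not given in the sources used here.

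Methyltestosterone is a synthetic androgen, a testosterone with an added methyl group that slows its breakdown in the liver. In the embryonic testis, Sertoli cells surround the germ cells and secrete AMH, the hormone that makes the Mullerian ducts regress, and Leydig cells make androgens from cholesterol. In birds ZZ embryos are male and ZW embryos female, the Z-linked gene DMRT1 directs testis formation, and oestrogen made by the aromatase CYP19A1 directs ovary formation.

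The male methyltestosterone column held 6669049 tags and the male oil column 492619, and the tributyltin and untreated male columns held 508095 and 1953798. Values are in RPM, the tags of a gene scaled to a common total of tags in every column. In the methyltestosterone column 1 tag was worth 0.150 RPM and in the oil column 2.03 RPM, so weak genes were measured far more coarsely after oil. Genes of the gonad were abundant in both columns. AMH stood at 10834 RPM after methyltestosterone and 8167 RPM after oil, and the steroid enzyme CYP17A1 at 11817 and 7917 RPM. In females after the same substances AMH stood at 6774 and 1242 RPM, and CYP17A1 at 10473 and 12122 RPM. CYP19A1 had 11.1 RPM after methyltestosterone and no tag after oil, against 97.3 and 118 RPM in females. Among Sertoli cell genes SOX9 had 40 tags after oil, CLDN11 5 and DMRT1 2. Of the Leydig cell markers, STAR, CYP11A1 and LHCGR were each under 50 RPM in all 4 male columns. CYP17A1 and HSD3B2, which also mark Leydig cells, were abundant, HSD3B2 at 817 RPM after methyltestosterone and 1594 RPM after oil.

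There is 1 column on each side and therefore no estimate of the spread between samples and no test. A gene was examined where either column reached 50 RPM, and it was called higher or lower where the columns were 4-fold or more apart, with values under 3 tags set to 3 tags. Intervals are exact 95% counting intervals. The tags carried no molecular identifiers and may repeat the same molecule, so the intervals and the 3-tag floors cover counting error only. In whole gonads, fewer cells of a type and less RNA per cell cannot be told apart.

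Of 3629 genes examined, 158 were higher after methyltestosterone than after oil (4.35%) and 74 were lower (2.04%), which makes 232 called (6.39%). With a 2-fold limit, 800 genes were higher (22.0%) and 274 lower (7.55%). The median gene stood 0.31 above oil on the log2 scale, with an interquartile range of -0.29 to 0.92. Median-of-ratios scaling shifts every log2 difference by -0.26 and puts the median at 0.01. It gave 109 genes higher and 103 lower, so that 51.4% of the called genes were higher, against 68.1% with scaling to the column total. Of the 232 genes, 183 were called with both scalings. The counting interval of the ratio lay on its own side of 1 for all 232 genes. At these depths the limits of 50 RPM and 4-fold fix this in advance, so it adds no support. It lay past 4-fold for 46 of the higher and 54 of the lower genes. Of the 158 higher genes, 6 had no oil tag and 28 had 1 to 3 oil tags.

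The oil column differed about as much from the untreated column as the methyltestosterone column did from oil. At the same 4-fold limit 7.06% of genes were called between oil and untreated males, 7.58% between methyltestosterone and tributyltin, and 7.72% between tributyltin and untreated. Only 1.49% were called between methyltestosterone and untreated males (53 of 3550) and 1.58% between tributyltin and oil (52 of 3291). These pairs share columns with each other and are given side by side. The oil and tributyltin columns thus stood together against the untreated and methyltestosterone columns, and they were also the shallow ones. In the comparison with oil alone, the substance cannot be told apart from whatever divides these 2 pairs of columns.

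**Figure D1:**
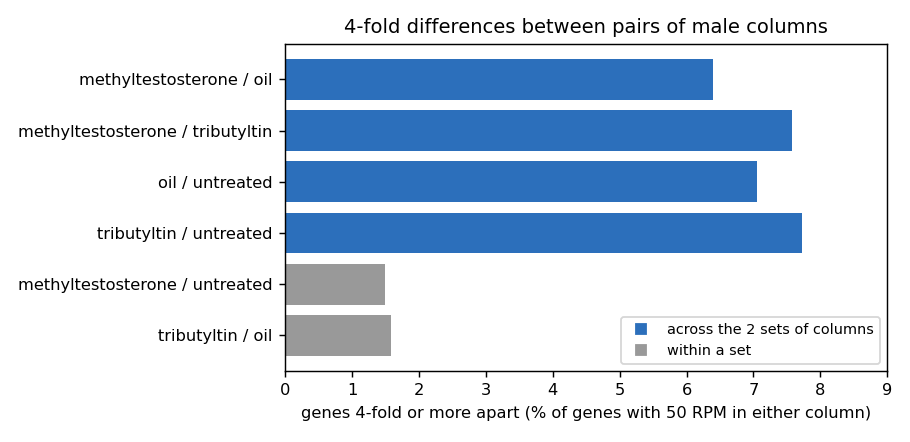
Share of genes 4-fold or more apart for each pair of the 4 male columns, as a percentage of the genes with at least 50 RPM in either column. Blue bars are pairs of columns across the division between methyltestosterone or untreated on one side and oil or tributyltin on the other (6.39% to 7.72%), and grey bars are the pairs within a side (1.49% and 1.58%).

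The untreated and tributyltin levels therefore place each called gene. On log2(RPM + 5), 181 of the 232 genes (78.0%) had an untreated level nearer to methyltestosterone and a tributyltin level nearer to oil, 119 of them higher and 62 lower. In 31 genes (22 higher, 9 lower) both other columns lay nearer to methyltestosterone. This does not make oil the only column that differed. P4HA2 in this class had 87.7 RPM after methyltestosterone and 6.09 RPM after oil, with 27.6 RPM after tributyltin and 41.5 RPM in untreated males. In 18 genes (15 higher, 3 lower) both other columns lay nearer to oil. In 17 of these methyltestosterone was also 2-fold or more apart from each other male column. The 4-fold limit and the class largely fix this in advance, so it adds no support. The last 2, CTSO and TSEN54, had the untreated level nearer to oil and the tributyltin level nearer to methyltestosterone. CTSO had 85.0 RPM after methyltestosterone and 18.3 RPM after oil, with 43.3 RPM after tributyltin and 38.4 RPM in untreated males. TSEN54 had 72.4 RPM after methyltestosterone and 16.2 RPM after oil, with 37.4 RPM after tributyltin and 18.9 RPM in untreated males. The classes use the same columns that called the genes and are a description.

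**Figure D2:**
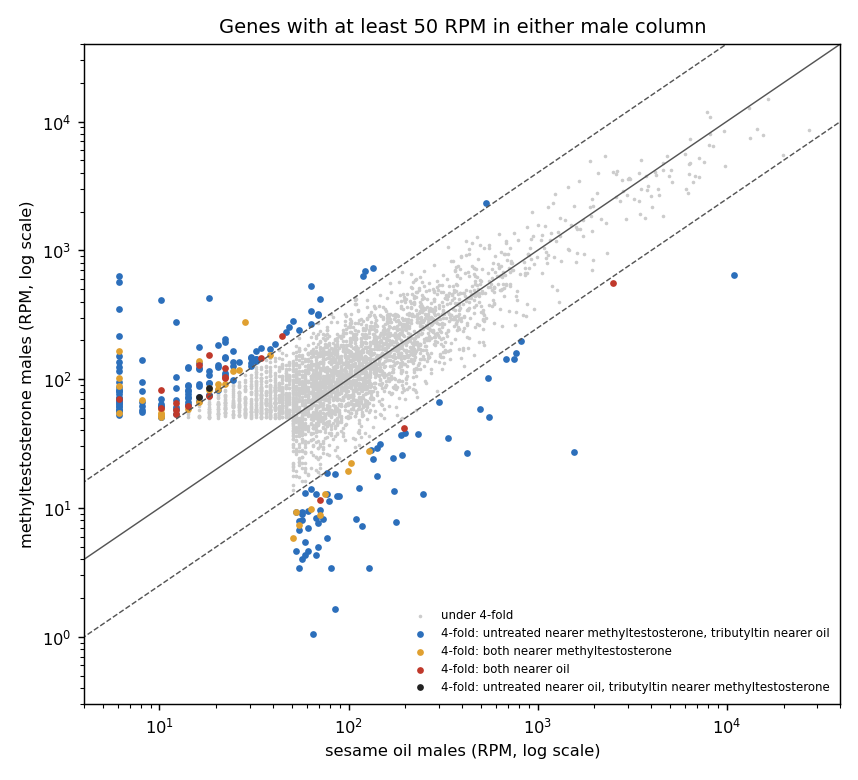
Levels of the 3629 examined genes in oil males (x axis) and methyltestosterone males (y axis), in RPM on log scales, with values under 3 tags drawn at 3 tags. The solid line marks equal levels and the dashed lines 4-fold differences. Most coloured points, the called genes, are blue (181 of 232, untreated nearer to methyltestosterone and tributyltin nearer to oil).

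Among called genes with a symbol, those farthest above oil by the nearer bound of the counting interval included a junction gene of Sertoli cells and a repressor of transcription. In 9 of the 10 farthest with a symbol, tributyltin males lay nearer to oil and untreated males nearer to methyltestosterone. FAM43A (ENSGALG00000007053, chromosome 9) had 637 RPM after methyltestosterone and no tag after oil, with 1.97 RPM after tributyltin and 229 RPM in untreated males. That makes it at least 105-fold higher than after oil against a floor of 3 tags, and the lower bound of its counting interval was 85.0-fold. HIC1 (ENSGALG00000026718, chromosome 19), a transcriptional repressor, had 564 RPM (interval 546 to 582) after methyltestosterone and 2.03 RPM, a single tag, after oil. Its ratio was 278, with an interval of 49.8 to 10976, and its levels were 3.94 RPM after tributyltin and 479.6 RPM in untreated males. CLDN11 (ENSGALG00000009355, chromosome 9), the claudin that seals the junctions between Sertoli cells, had 411 RPM (395 to 426) after methyltestosterone and 10.2 RPM (3.30 to 23.7) after oil. It was 40.4-fold higher (17.3 to 125), at 3.94 RPM after tributyltin and 229 RPM in untreated males. In all 3 genes the methyltestosterone and untreated levels were high and the oil and tributyltin levels at or near 0.

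The other 7 of these genes had 71.7 to 423 RPM after methyltestosterone. SDHC, a membrane subunit of succinate dehydrogenase in the respiratory chain, had 151 RPM after methyltestosterone and no tag after oil, with no tag after tributyltin and 122 RPM in untreated males. TPN, the chicken tapasin of the major histocompatibility complex, had 95.1 RPM after methyltestosterone and no tag after oil, with none after tributyltin and 30.7 RPM in untreated males. CSPG4, a proteoglycan of the surface of pericytes, had 87.3 RPM after methyltestosterone and no tag after oil, with none after tributyltin and 25.6 RPM in untreated males. These 3 genes were at least 24.7-fold, 15.6-fold and 14.3-fold higher than after oil in that order, against the 3-tag floor, and the lower bounds of their counting intervals were 20.1-fold, 12.7-fold and 11.6-fold. SREBP-1, a regulator of fatty acid synthesis, had 71.7 RPM after methyltestosterone and no tag after oil or tributyltin, with 51.2 RPM in untreated males. LMF2, of the lipase maturation factor family, had 423 RPM after methyltestosterone and 18.3 RPM after oil, with 19.7 RPM after tributyltin and 299 RPM in untreated males. FASTK had 124 RPM after methyltestosterone and 4.06 RPM after oil, with 3.94 RPM after tributyltin and 72.2 RPM in untreated males. CD69, an activation marker of lymphocytes, was the exception among the 10, since only oil was low. It had 165 RPM after methyltestosterone and 4.06 RPM after oil, with 90.5 RPM after tributyltin and 124 RPM in untreated males.

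Among called genes with a symbol, those farthest below oil included genes of ribosomal proteins and a relative of them, and all 10 had tributyltin nearer to oil and untreated nearer to methyltestosterone. RPS27A (ENSGALG00000008125, chromosome 3), which codes for ubiquitin fused to a protein of the small ribosomal subunit, had 27.1 RPM (23.3 to 31.4) after methyltestosterone and 1565 RPM (1457 to 1680) after oil. Its levels were 2444 RPM after tributyltin and 93.7 RPM in untreated males, and oil exceeded methyltestosterone 57.7-fold. RPL36 (ENSGALG00000000474, chromosome 28), of the large subunit, had 644 RPM (625 to 664) after methyltestosterone and 10879 RPM (10589 to 11174) after oil, a 16.9-fold difference. It had 12722 RPM after tributyltin and 201 RPM in untreated males, so methyltestosterone lay above untreated. RPL7L1, a ribosomal protein L7 relative, had 50.7 RPM after methyltestosterone and 554 RPM after oil, with 478 RPM after tributyltin and 35.8 RPM in untreated males. Genes of ribosomal proteins can have near-identical copies, and tags shared with a copy could have been split in the counting. Whether these genes have such copies in the chicken was not tested, so these values are uncertain.

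The other genes of this rank stood under 15 RPM after methyltestosterone. TIMP2 (ENSGALG00000027070, chromosome 18), an inhibitor of matrix metalloproteinases, had 3.45 RPM (23 tags) after methyltestosterone and 128 RPM (63 tags) after oil, with 98.4 RPM after tributyltin and 2.56 RPM in untreated males. SNRPB, a core protein of the spliceosome, had 1.65 RPM after methyltestosterone and 85.3 RPM after oil, with 76.8 RPM after tributyltin and 1.53 RPM in untreated males. S100A10, the partner of annexin A2, had 1.05 RPM (7 tags) after methyltestosterone and 65.0 RPM (32 tags) after oil, with 17.7 RPM after tributyltin and 3.58 RPM in untreated males. For these 3 genes oil exceeded methyltestosterone 37.1-fold, 51.7-fold and 61.9-fold in the order given. VPS24, of the membrane-remodelling ESCRT machinery, had 7.80 RPM after methyltestosterone and 179 RPM after oil, with 259.8 RPM after tributyltin and 8.70 RPM in untreated males. RFXANK, a regulator of class II histocompatibility genes, had 7.20 RPM after methyltestosterone and 118 RPM after oil, with 59.0 RPM after tributyltin and 5.12 RPM in untreated males. ATRIP, the partner of the DNA damage kinase ATR, had 13.5 RPM after methyltestosterone and 175 RPM after oil, with 100.4 RPM after tributyltin and 10.2 RPM in untreated males. In all 10 lower genes tributyltin lay above untreated males.

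**Figure D3:**
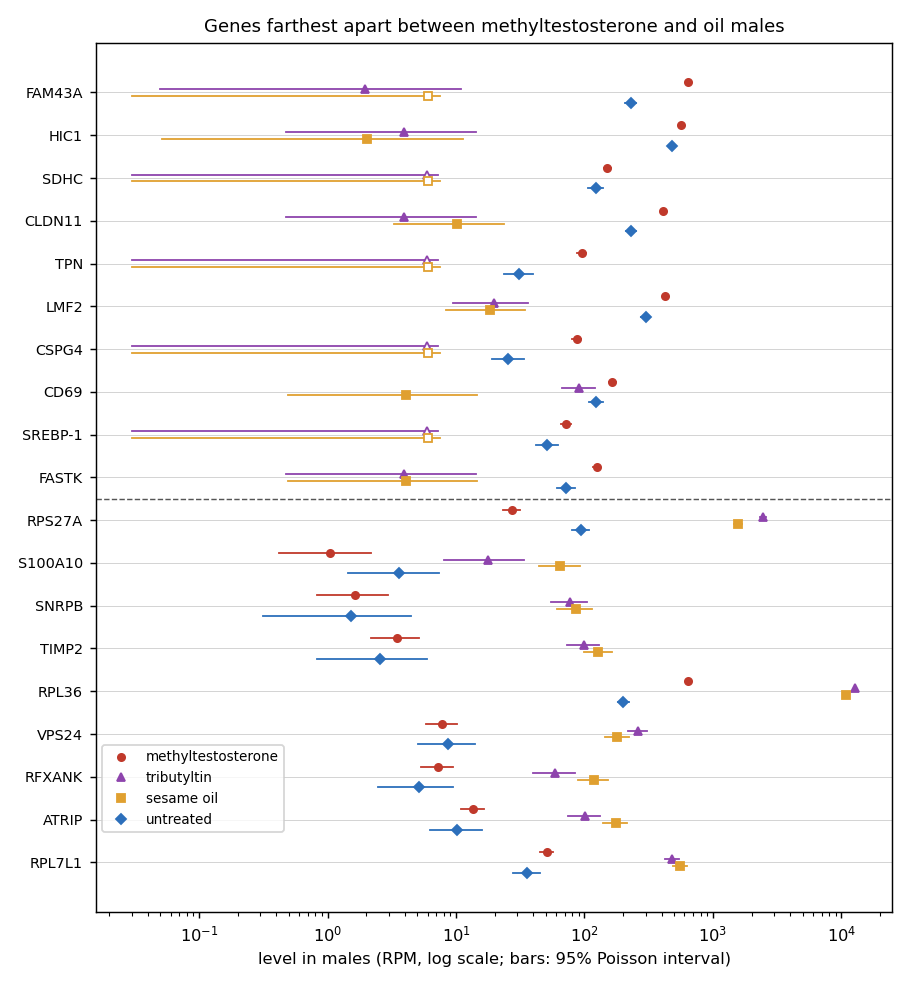
Levels of the 10 called genes with a symbol farthest above oil (upper rows) and 9 of the 10 farthest below it (lower rows) in the 4 male columns, in RPM on a log scale, with 95% counting intervals. Open symbols mark no tag, drawn at the 3-tag floor, and intervals that reach 0 stop near the left edge. In 18 of the 19 genes the methyltestosterone circle lies with the untreated diamond, and the oil square with the tributyltin triangle, and the exception is CD69.

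A stricter description asks where methyltestosterone stood apart from each of the other 3 male columns, by 2-fold or more. It stood above all of them in 79 of 3308 genes (2.39%) and below all of them in 15 of 2223 (0.675%). By the same rule tributyltin stood above in 62 genes (2.13%) and below in 67 (2.84%). Oil stood above in 40 (1.40%) and below in 54 (2.29%), and untreated above in 48 (1.55%) and below in 50 (2.19%). With median-of-ratios scaling methyltestosterone stood above in 44 genes, all among the 79, and below in 36, which include all 15. The count above for methyltestosterone thus lay near that of the other columns, and its excess of genes above did not hold with the other scaling. Its count below was the lowest with scaling to the column total. With median-of-ratios scaling its share below was 1.57%, against 1.71% to 3.51% for the other columns.

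The genes with methyltestosterone farthest above the other 3 columns included an import gene, regulators of transcription and the cell cycle, and a host defence peptide. TOMM40L (ENSGALG00000013827), a relative of the mitochondrial import pore TOMM40, had 153 RPM (144 to 163) after methyltestosterone and 18.3 RPM (8.35 to 34.7) after oil, with 13.8 RPM after tributyltin and 11.8 RPM in untreated males. Oil was the nearest, and the ratio to it was 8.40 (4.41 to 18.4). ZBTB20 (ENSGALG00000015094, chromosome 1), a zinc finger transcription factor, had 70.6 RPM after methyltestosterone and 4.06 RPM after oil, with 9.84 RPM after tributyltin and 4.09 RPM in untreated males. In both genes the 3 columns without methyltestosterone lay close together.

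CCND3 (ENSGALG00000003485, chromosome 26), a cyclin that drives cells into DNA synthesis, had 103 RPM (95.9 to 111) after methyltestosterone and 22.3 RPM (11.1 to 40.0) after oil, with 19.7 RPM after tributyltin and 24.6 RPM in untreated males. CATHL2, an antimicrobial cathelicidin, had 122 RPM after methyltestosterone and 22.3 RPM after oil, with 1.97 RPM after tributyltin and 27.6 RPM in untreated males. H2AFV, a variant of histone H2A, had 556 RPM after methyltestosterone and 166 RPM after oil, with 152 RPM after tributyltin and 125 RPM in untreated males. Histone genes too have near copies, which makes this value uncertain, and at 3.34-fold H2AFV did not reach the 4-fold limit. TOR4A had 59.7 RPM after methyltestosterone and 10.2 RPM after oil, with 9.84 RPM after tributyltin and 18.9 RPM in untreated males. GIF, gastric intrinsic factor, a carrier of vitamin B12, had 145 RPM after methyltestosterone and 34.5 RPM after oil, with 39.4 RPM after tributyltin and 43.0 RPM in untreated males. CSPG4, given above, also belongs here. All 8 genes remained above the other 3 columns with median-of-ratios scaling.

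Below the other 3 columns stood a protease inhibitor, a retinoid enzyme and a contractile protein. SERPINE2 (ENSGALG00000005135, chromosome 9), an inhibitor of thrombin and plasminogen activators, had 560.2 RPM (542 to 578) after methyltestosterone and 2521 RPM (2383 to 2665) after oil, with 3552 RPM after tributyltin and 1291 RPM in untreated males. MYL9, the regulatory light chain of smooth muscle myosin, had 41.8 RPM after methyltestosterone and 197 RPM after oil, with 94.5 RPM after tributyltin and 157 RPM in untreated males. Both were called lower than after oil, 4.50-fold and 4.71-fold. ALDH1A1, a Z-linked enzyme that makes retinoic acid, had 33.4 RPM after methyltestosterone and 95.4 RPM after oil, with 106 RPM after tributyltin and 141 RPM in untreated males. XBP1, a transcription factor of the unfolded protein response, had 81.6 RPM after methyltestosterone and 292 RPM after oil, with 339 RPM after tributyltin and 182 RPM in untreated males. These values were 2.85-fold and 3.58-fold below oil and did not reach the 4-fold limit. PDGF-A, a growth factor, had 37.3 RPM after methyltestosterone and 233 RPM after oil, with 209 RPM after tributyltin and 83.9 RPM in untreated males, and was called. GNB2L1, the ribosome-bound scaffold also called RACK1, had 257 RPM after methyltestosterone and 646 RPM after oil, with 716 RPM after tributyltin and 667 RPM in untreated males. PSMA1, a proteasome subunit, had 64.3 RPM after methyltestosterone and 148 RPM after oil, with 256 RPM after tributyltin and 242 RPM in untreated males. The eighth gene was RPS27A, in which untreated males already lay far below oil.

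The female columns offer the same pair of substances in libraries of their own, although they cross the same division of columns. Of the 158 genes higher in males, 117 (74.1%) were at least 2-fold higher in females after methyltestosterone than after oil and 0 at least 2-fold lower. Of the 74 lower genes, 64 (86.5%) were at least 2-fold lower in females and 0 at least 2-fold higher. Over all genes examined in males, 23.3% were 2-fold higher in females and 11.4% were 2-fold lower. In females 12% of genes were called at 4-fold (336 higher and 134 lower of 3925). FAM43A had 854 RPM in methyltestosterone females and 44.5 RPM in oil females, and TIMP2 had 2.22 and 181 RPM. CD69 was a gene that did not repeat, with 76.7 RPM in methyltestosterone females and 50.8 RPM in oil females.

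Standing apart from the other 3 columns was shared by fewer genes. In females 241 of 3400 genes had methyltestosterone above the other 3 columns (7.09%) and 65 of 2304 had it below (2.82%). Above in both sexes were 27 genes, 34.2% of the male list and 11.2% of the female list. Below in both were 5 genes, 33.3% of the male and 7.69% of the female list. With median-of-ratios scaling of the males, 17 of the 27 and all 5 held.

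Among these genes CCND3 had 94.8 RPM in methyltestosterone females and 15.9 RPM in oil females, with 12.9 RPM after tributyltin and 22.2 RPM in untreated females. CATHL2 had 261 RPM in methyltestosterone females and 47.6 RPM in oil females, with 100.3 RPM after tributyltin and 99.9 RPM in untreated females. GAL7, an avian defensin, stood at 208 RPM in methyltestosterone males and 87.3 RPM in oil males, with 76.8 RPM after tributyltin and 73.2 RPM in untreated males. In the other sex GAL7 stood at 1119 RPM in methyltestosterone females and 318 RPM in oil females. FDFT1, the squalene synthase that commits the pathway to cholesterol, had 358 RPM in methyltestosterone males and 138 RPM in oil males, with 146 RPM after tributyltin and 66.5 RPM in untreated males. In females FDFT1 had 408 RPM after methyltestosterone and 181 RPM after oil. MYL9 had 54.8 RPM in methyltestosterone females and 216 RPM in oil females, and XBP1 had 128 and 394 RPM. RYK, a receptor for WNT proteins, had 315 RPM in methyltestosterone males and 129.9 RPM in oil males, with 134 RPM after tributyltin and 136 RPM in untreated males. In females RYK had 278 RPM after methyltestosterone and 69.9 RPM after oil. In each of these genes the methyltestosterone column lay outside the other 3 columns of its sex, which the rule that selected them requires. GAL7 did not hold in males with median-of-ratios scaling.

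**Figure D4:**
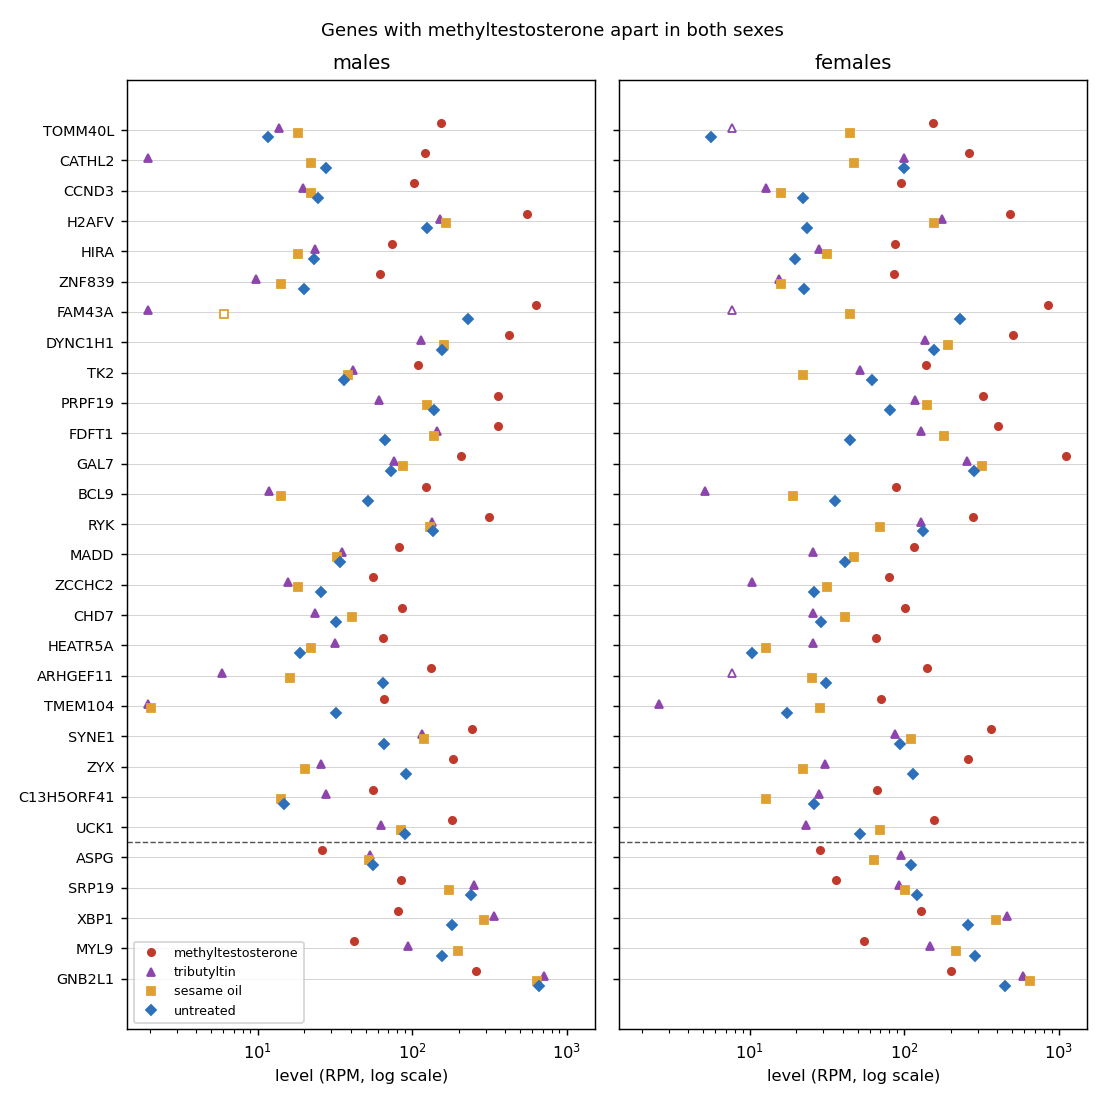
Levels, in RPM on log scales, of the genes with a symbol in which methyltestosterone stood at least 2-fold above (rows over the dashed line) or below (rows under it) each of the other 3 columns in males (left panel) and in females (right panel). Open symbols mark no tag, drawn at the 3-tag floor. The red circles lie outside the other symbols of a row in both panels, as the selection requires, while the order of the others differs between genes.

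In 31 called genes the tributyltin and untreated levels lay nearer to methyltestosterone than to oil. PDK4, a kinase that switches off pyruvate dehydrogenase when fat is burnt, had 103 RPM (95.02 to 111) after methyltestosterone and 4.06 RPM (0.492 to 14.7) after oil, with 80.7 RPM after tributyltin and 86.0 RPM in untreated males. Its ratio was 25.3 (6.97 to 209). GAL10, a defensin, had 277 RPM after methyltestosterone and 28.4 RPM after oil, with 329 RPM after tributyltin and 314 RPM in untreated males. The class also held the transcription factor ZBTB16, at 155 RPM after methyltestosterone and 38.6 RPM after oil, with 104 RPM after tributyltin and 136 RPM in untreated males. Among its lower genes was the mismatch repair gene MSH6, at 5.85 RPM after methyltestosterone and 50.7 RPM after oil, with 3.94 RPM after tributyltin and 10.7 RPM in untreated males. ZBTB16 and MSH6 were chosen after their values were seen. For none of these 4 genes did methyltestosterone differ 4-fold from tributyltin or untreated males.

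CLDN11 was the called gene among those of testis and Sertoli cells, and SOX9 and DMRT1 also had their higher values after methyltestosterone. Of 18 list members 6 were examined, 1 was called higher, none lower, and the median was 0.87 on the log2 scale, against 0.31 over all genes examined. SOX9, the transcription factor of Sertoli cells, had 322 RPM (309 to 336) after methyltestosterone and 81.2 RPM (58.0 to 111) after oil, with 47.2 RPM after tributyltin and 273 RPM in untreated males. At 3.97-fold it fell just short of the limit. DMRT1 had 49.0 RPM (43.9 to 54.6) after methyltestosterone and 4.06 RPM (0.492 to 14.7) after oil, with 15.7 RPM after tributyltin and 66.0 RPM in untreated males. Its ratio was 12.1 (3.32 to 100.1), but with both columns under 50 RPM it was not examined. AMH had 6912 RPM after tributyltin and 10186 RPM in untreated males, and its ratio of methyltestosterone over oil was 1.33 (1.29 to 1.37). NR5A1, the master regulator of steroid enzyme genes, had 518 RPM after methyltestosterone and 292 RPM after oil, with 339 RPM after tributyltin and 407 RPM in untreated males. FSHR, the receptor of follicle-stimulating hormone, had 223 RPM after methyltestosterone and 118 RPM after oil, with 169 RPM after tributyltin and 125 RPM in untreated males. INHBB, an activin and inhibin subunit, had 24.6 RPM after methyltestosterone and 8.12 RPM after oil, with 7.87 RPM after tributyltin and 19.96 RPM in untreated males. INHA had 0.600 RPM after methyltestosterone and 6.09 RPM after oil, with 1.97 RPM after tributyltin and 1.53 RPM in untreated males.

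None of the 7 examined genes of testosterone and oestrogen synthesis was called, and their median of 0.31 was that of all genes. CYP17A1, which makes the precursors of androgens, was 1.49-fold higher (1.45 to 1.54) after methyltestosterone than after oil, with 8063 RPM after tributyltin and 10071 RPM in untreated males. HSD3B2, the dehydrogenase of the same pathway, lay the other way, at 817 RPM (796 to 839) after methyltestosterone and 1594 RPM (1484 to 1709) after oil, with 1466 RPM after tributyltin and 877 RPM in untreated males. STAR, which brings cholesterol into mitochondria, had 11.7 RPM after methyltestosterone and 44.7 RPM after oil, with 45.3 RPM after tributyltin and 1.02 RPM in untreated males. CYP11A1, which makes the first steroid from cholesterol, had 3.90 RPM after methyltestosterone and 2.03 RPM after oil, with 9.84 RPM after tributyltin and 0.512 RPM in untreated males. The aromatase CYP19A1 was without a tag after tributyltin too and had 3.58 RPM in untreated males. SRD5A2, which makes dihydrotestosterone, had 5.998 RPM after methyltestosterone and 4.06 RPM after oil, with 5.90 RPM after tributyltin and 7.68 RPM in untreated males. The methyltestosterone and oil values lay under what 3 oil tags are worth, so no fold is given. SRD5A1 had no tag in any male column but the untreated one, where 1 tag made 0.512 RPM. The genes of the pathway thus did not lie to one side.

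Of the 6 examined steroid and gonadotropin receptor genes none was called. LHCGR, the receptor of luteinising hormone, had 9.30 RPM after methyltestosterone and 10.2 RPM after oil, with 33.5 RPM after tributyltin and 2.56 RPM in untreated males. The oestrogen receptor ESR1 had 1.05 RPM after methyltestosterone and 2.03 RPM after oil, with no tag after tributyltin and 0.512 RPM in untreated males.

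Of the genes that respond to androgen in mammals, 22 were in the table and 9 were examined, and none was called. At 2-fold 4 were higher and 1 lower, against 22.0% and 7.55% of all genes examined, and the median was 0.95. The 2-fold counts are given with scaling to the column total only. Median-of-ratios scaling shifts each difference by -0.26, which takes NDRG1 and TSC22D1, given below, under 2-fold. NDRG1 had 315 RPM after methyltestosterone and 136 RPM after oil, with 199 RPM after tributyltin and 263 RPM in untreated males. TSC22D1 had 316 RPM after methyltestosterone and 146 RPM after oil, with 132 RPM after tributyltin and 108 RPM in untreated males. SORD, sorbitol dehydrogenase, was the one on the lower side, with 70.6 RPM after methyltestosterone and 150.2 RPM after oil, 139.7 RPM after tributyltin and 89.1 RPM in untreated males. The list comes from mammalian prostate, and whether these genes respond to androgen in chicken testis was not tested.

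Cholesterol synthesis genes had a median of 1.25, second among the lists with 4 or more examined members, although none was called. Of 12 examined members 7 were 2-fold higher and none 2-fold lower, against 22.0% and 7.55% of all genes examined. Both counts are given with scaling to the column total only. The shift of -0.26 by median-of-ratios scaling takes CYP51A1 and PMVK, given below, just under 2-fold. It leaves FDFT1 at 1.12 on the log2 scale. CYP51A1, the lanosterol demethylase, had 363 RPM after methyltestosterone and 152 RPM after oil, with 242 RPM after tributyltin and 253 RPM in untreated males. PMVK, a kinase of the mevalonate pathway, had 217 RPM after methyltestosterone and 91.3 RPM after oil, with 57.1 RPM after tributyltin and 144 RPM in untreated males. SREBF2, the transcription factor of the pathway, lay the other way, at 149.8 RPM after methyltestosterone and 266 RPM after oil, with 185 RPM after tributyltin and 265 RPM in untreated males. Of the 12 members FDFT1 alone had methyltestosterone 2-fold or more above the untreated level.

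Over all genes examined 4.35% were called higher and 2.04% lower. In fatty acid metabolism 1 of 10 examined genes was higher (PDK4) and 1 lower. The lower one was HADHA, the first subunit of the trifunctional protein of fatty acid breakdown, with 4.35 RPM after methyltestosterone and 67.0 RPM after oil, 116 RPM after tributyltin and 9.21 RPM in untreated males. Of 13 examined cell cycle genes CCND3 and CDK2 were higher and none was lower, whereas median-of-ratios scaling left 1 higher and called 1 lower. CDK2, the kinase of DNA synthesis, had 64.2 RPM (58.2 to 70.6) after methyltestosterone and 2.03 RPM, 1 tag, after oil, with 1.97 RPM after tributyltin and 109.5 RPM in untreated males. TOP2A, a topoisomerase of dividing cells, had 50.1 RPM after methyltestosterone and 191 RPM after oil, with 100.4 RPM after tributyltin and 36.3 RPM in untreated males, which is under 4-fold. The other 10 lay between these on both sides of 0, and the list's median was 0.12.

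Of 27 examined matrix genes COL9A2 was higher, COL5A1 and TIMP2 were lower, and the median was 0.23. The shares over all genes examined were 4.35% higher and 2.04% lower. COL9A2, a chain of collagen IX, had 256 RPM after methyltestosterone and 48.7 RPM after oil, with 29.5 RPM after tributyltin and 175 RPM in untreated males. COL5A1, a chain of collagen V, had 197 RPM after methyltestosterone and 820.1 RPM after oil, with 665 RPM after tributyltin and 282 RPM in untreated males. Among 6 examined genes of Leydig and peritubular cells, NR2F2, a nuclear receptor of interstitial cells, was the called one. It had 4.35 RPM after methyltestosterone and 58.9 RPM after oil, with 23.6 RPM after tributyltin and 4.61 RPM in untreated males. Of 7 examined smooth muscle genes MYL9 alone was called, and TAGLN lay the other way, at 199.9 RPM after methyltestosterone and 75.1 RPM after oil, with 74.8 RPM after tributyltin and 109 RPM in untreated males. Of 4 examined immediate early and stress genes 2 were higher. KLF6, a zinc finger factor, had 116 RPM after methyltestosterone and 18.3 RPM after oil, with 33.5 RPM after tributyltin and 59.4 RPM in untreated males. GADD45B, a stress response gene, had 67.6 RPM after methyltestosterone and 6.09 RPM after oil, with 11.8 RPM after tributyltin and 41.5 RPM in untreated males.

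Several other lists held no called gene. In the IGF axis 4 of 6 examined genes were 2-fold higher (IGF2, IGFBP7, IGF2BP3 and HTRA1), against 22.0% of all genes examined. This 2-fold count is given with scaling to the column total only. Median-of-ratios scaling put IGFBP7 under 2-fold, at 0.78 on the log2 scale. Its shift of -0.26 takes IGF2, given below, under 2-fold too, so the count of 4 does not hold with that scaling. The median of the list was 1.06. IGF2, the growth factor itself, had 62.7 RPM after methyltestosterone and 28.4 RPM after oil, with 27.6 RPM after tributyltin and 55.8 RPM in untreated males. None was called of 11 examined genes of BMP, activin, WNT and hedgehog signalling (median 0.64), of 4 retinoid genes (0.78), of 21 chaperone and unfolded protein genes (0.31, with 1 lower by median-of-ratios scaling) or of 16 redox genes (0.00). HSP70, a heat shock gene outside the chaperone list, was called lower. It had 9.60 RPM after methyltestosterone and 71.0 RPM after oil, with 45.3 RPM after tributyltin and 9.21 RPM in untreated males. Of the germ cell genes DAZL alone was examined, at 46.2 RPM after methyltestosterone and 77.1 RPM after oil, with 72.8 RPM after tributyltin and 30.7 RPM in untreated males. The germ cell marker DDX4 had 0.450 RPM after methyltestosterone and no tag after oil, and none of 3 examined meiosis genes was called.

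Cytosolic ribosomal protein genes had a median of -0.62 over 49 examined members, the lowest but one among lists with 4 or more examined members. Of these, 6 were lower at 4-fold, among them RPS27A, RPL36, RPL30, RPL8 and the L7 relative RPL7L1, which the list counts. None was higher at 4-fold, and at 2-fold 15 were lower and 3 higher. Among all genes examined 2.04% were lower and 4.35% higher at 4-fold, and 7.55% and 22.0% at 2-fold. Their summed level was 134143 RPM after methyltestosterone and 196137 RPM after oil, with 196888 RPM after tributyltin and 150244 RPM in untreated males. RPL37 was among the most abundant of them after oil, with 5467 RPM after methyltestosterone and 19790.1 RPM after oil, 24686 RPM after tributyltin and 9985 RPM in untreated males. RPL24 lay the other way and was the examined member with methyltestosterone 2-fold above each other male column, at 1061 RPM after methyltestosterone and 335 RPM after oil, with 364 RPM after tributyltin and 363 RPM in untreated males. Of the 9 protein genes of the mitochondrial genome none was called and 3 were 2-fold lower, and their summed level was 45037 RPM after methyltestosterone and 60769 RPM after oil. That sum was 32852 RPM after tributyltin and 62704 RPM in untreated males, so it did not follow the division of the columns. Of 40 examined nuclear genes in the respiratory chain list SDHC alone was called, and their median was 0.18. NDUFAB1, a respiratory chain gene outside that list, was called lower. It had 34.6 RPM after methyltestosterone and 337 RPM after oil, with 169 RPM after tributyltin and 4.61 RPM in untreated males.

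**Figure D5:**
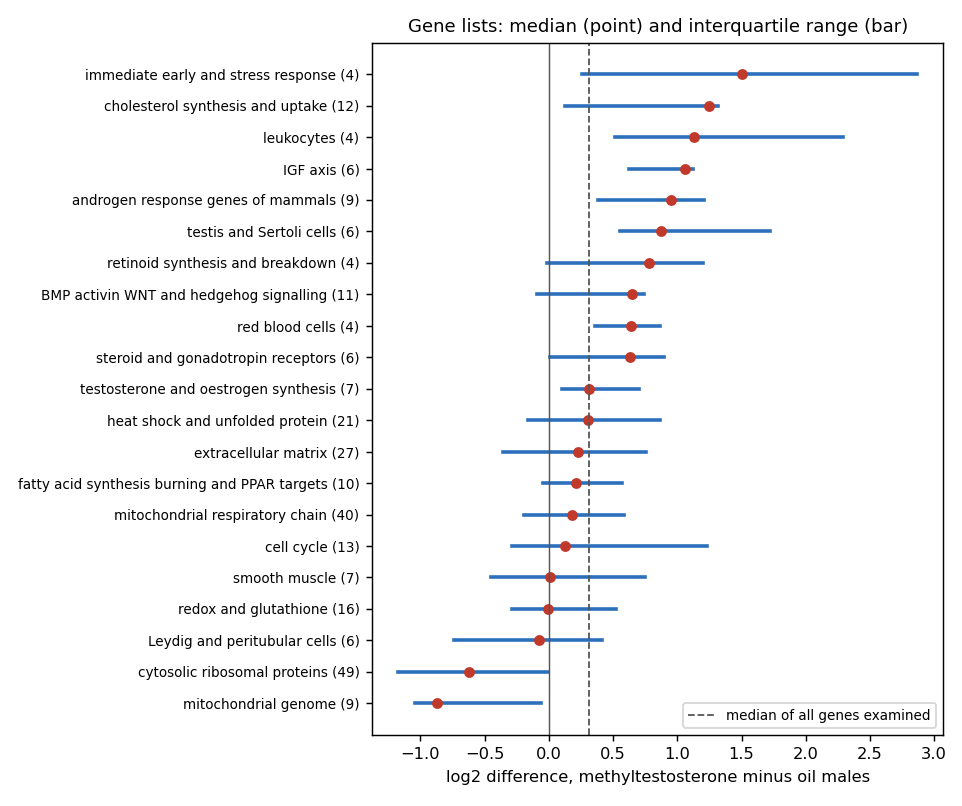
Median (point) and interquartile range (bar) of the log2 difference, methyltestosterone minus oil males, for each gene list with at least 4 examined members (number in brackets). The dashed line is the median of all 3629 examined genes, 0.31, and the lists run from 1.51 for the 4 immediate early and stress genes to -0.87 for the mitochondrial genome.

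Markers of other cell types differed between the columns to unequal extents, and their part in the results was not tested. The largest median among their lists was 2.72, over 3 examined Mullerian duct and oviduct genes, against 0.31 over all genes examined. Of all genes examined 4.35% were called higher and 2.04% lower. Red blood cell genes summed to 6898 RPM after methyltestosterone and 3981 RPM after oil, with 4749 RPM after tributyltin and 2899 RPM in untreated males, and none of the 4 examined was called. Leukocyte genes summed to 537 RPM after methyltestosterone and 333 RPM after oil, with 453 RPM after tributyltin and 434 RPM in untreated males. CD69 was the 1 called of 4 examined, and 2 of 19 were without a tag after methyltestosterone and 8 of 19 after oil. Over all 14074 genes 2139 were without a tag after methyltestosterone and 5569 after oil, so the list lay near the share of all genes. Mullerian duct and oviduct genes summed to 829.7 RPM after methyltestosterone and 300.4 RPM after oil, with 499.9 RPM after tributyltin and 587 RPM in untreated males, and GAL10 and EMX2 were higher of 3 examined. EMX2, a homeobox gene of the urogenital tract, had 147 RPM after methyltestosterone and 22.3 RPM after oil, with 11.8 RPM after tributyltin and 92.1 RPM in untreated males. The oviduct markers LYZ (lysozyme), AVD (avidin) and GAL11 were under 2 RPM in all 4 male columns. Adrenal and chromaffin genes summed to 396 RPM after methyltestosterone and 256 RPM after oil, with 238 RPM after tributyltin and 762 RPM in untreated males. In the same order kidney genes summed to 419, 294, 317 and 464 RPM, and endothelial genes to 401, 341, 297 and 447 RPM. Gut genes summed to 614, 574, 563 and 409 RPM and nerve genes to 691, 562, 612 and 682 RPM. Skeletal muscle genes summed to 32.7, 32.5, 21.6 and 36.9 RPM. Of the adrenal, kidney, endothelial, gut, nerve and skeletal muscle genes none was called. No member of the ovary and granulosa list reached 50 RPM in either column. FOXL2, the granulosa cell factor, had 18.4 RPM after methyltestosterone and no tag after oil or tributyltin, with 25.1 RPM in untreated males.

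Of the other genes followed whatever their values, IGFBP7 had 87.9 RPM after methyltestosterone and 42.6 RPM after oil, with 118 RPM after tributyltin and 37.9 RPM in untreated males. NFIB, a Z-linked transcription factor, had 117 RPM after methyltestosterone and 112 RPM after oil, with 1102 RPM after tributyltin and 96.7 RPM in untreated males. Tributyltin was thus the male column that differed. In females NFIB had 128 RPM after methyltestosterone and 934 RPM after oil, so a high level was not limited to tributyltin.

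Called genes were spread over the chromosomes in unequal shares. On the microchromosomes 5.50% of examined genes were higher and 2.75% lower, and on chromosomes 1 to 5 the shares were 3.68% and 1.71%. On the Z chromosome 2 of 191 were higher (1.05%) and 3 lower (1.57%). Of 96 examined genes on unplaced scaffolds and linkage groups 13.5% were higher and 4.17% lower. In the authors' deposited table the p-value for this pair of columns, from a test that is not given in the sources used here, was under 0.05 for 3984 of 12015 genes (33.2%), all 232 called genes among them. That p-value rests on the same columns that called the genes, so the overlap adds no independent support.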

How the data were processed

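Gonad RNA of 16 pooled libraries had been sequenced as SuperSAGE tags. The values used were deposited by the authors as RPM in 1 table of 14074 genes and 8 columns, with left and right libraries joined in a way not given in the sources used here. Alignment with Novoalign to galGal4 is recorded in the submitters' processing notes, and versions are not given in the sources used here. The filler of 0.05, which stands for no tag, was set to 0. Then 100% of values were whole tags within 0.01, which gave each column's tag total and the counting intervals. The authors deposited p-values for this pair of columns, from a test that is not given in the sources used here, and these are counted but not otherwise used. A total of 1967 genes had no usable symbol (13 symbols had turned into dates), and 22 called genes are therefore unnamed.

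With 1 column a group no count model and no test was run. Ratios and exact Poisson and Clopper-Pearson intervals (95%) were computed in Python 3.11.15 with scipy 1.17.1, and no fold was given where both values lay under the larger of the 2 floors of 3 tags. Alternatives were median-of-ratios factors, TMM factors (edgeR 4.0.16 in R 4.3.3, on the recovered tags), other minima, folds, floors and pseudocounts, and thinning to 492619 tags. The code was tested on simulated data.

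Named were, among genes with a symbol, the 10 called genes in each direction whose nearer interval bound lay farthest from 1 and the 8 in each direction with methyltestosterone farthest apart from the other 3 male columns. To these were added up to 4 called members of each of 31 lists and 25 further genes, 23 of them in the table. Members, lists and rules were chosen with earlier results of these data known, and genes named beyond the rule were chosen after their values were seen. Some genes named by the rule are not reported here.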

Additional observations from a re-analysis of the deposited data

Results flagged for a closer look

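GIF, the carrier of vitamin B12, was at 145 RPM after methyltestosterone and 34.5 RPM after oil in males, a log2 difference of 2.07. In females it was at 1041 RPM after methyltestosterone and 1293 RPM after oil, a log2 difference of -0.31, so the sign differed between the sexes. With 1 column for each sex and substance, the difference between the sexes was not tested.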

How the results depend on the processing

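No paired analysis was possible because each group was 1 column, and for the same reason no sample could be left out. The counts of 158 higher and 74 lower genes kept within 1.5 times of these values with both scalings, with a mean of at least 20 RPM over the male columns and with thinning to the oil depth. A floor of 1 tag gave the same 158 and 74, which the limits of 50 RPM and 4-fold fix in advance. The counts were 310 and 168 with a minimum of 20 RPM, 73 and 33 with 100 RPM, and 310 and 352 with no minimum beyond the floors. A limit of 2-fold gave 800 and 274, and 8-fold gave 55 and 30. A floor of 10 tags left 95 higher, and 46 were higher with the nearer counting bound past 4-fold.

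At a minimum of 20 RPM the classes held 290 genes with untreated nearer to methyltestosterone and tributyltin nearer to oil, 39 with both nearer to oil, 133 with both nearer to methyltestosterone and 16 of the last class. At 100 RPM they held 88, 9, 9 and 0. The last class held 1 gene with a pseudocount of 20 RPM and 1 with median-of-ratios scaling. Methyltestosterone stood above each other male column in 44 genes and below in 36 with median-of-ratios scaling, in 145 and 32 at 20 RPM, and in 19 and 4 with the nearer counting bound past 2-fold. It stood above in 41 at 100 RPM and below in 28 with TMM scaling. These alternatives on standing apart were chosen after seeing the data. Of the higher genes 76 were 4-fold higher in females as well. Beyond their counting intervals, the differences of 10 named genes moved with median-of-ratios and of 7 with TMM scaling, among them AMH, at 0.15 and 0.22 on the log2 scale in place of 0.41. No called direction reversed under these settings, while NFIB, which was not called, turned from 0.06 to -0.20 with median-of-ratios and -0.12 with TMM scaling. For the changes under scaling the cause was not tested, and the other settings change which genes can pass. At 2.03 RPM a tag, the oil column limits what can be seen of genes under its floor of 6.09 RPM.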
